A study of Homo sapiens with 6 samples.

Results

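The genes of non-homologous end joining were taken as a group of 10 from the deposited gene table by their symbols: XRCC6, XRCC5, PRKDC, DCLRE1C, LIG4, XRCC4, NHEJ1, PAXX, TP53BP1 and RIF1. All 10 were among the 16798 genes of the table, and all 10 passed the filter on low counts that left 12368 genes for testing. The data were bulk RNA-seq of COV434 cells, an immortalized line labelled as granulosa cells (GCs), the somatic cells that surround the oocyte. The 3 control samples carried the genotype label WT, and the labels give no vehicle for them. The 3 treated samples had received 15 µM 4HC, an activated form of cyclophosphamide (CTX), for 24 h, and their genotype label repeats the treatment (CTX). Both groups were the same line, grown in DMEM with fetal bovine serum, and the labels do not say that replicates were separate cultures, so that p-values measure only the spread between these libraries, which may be technical.

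Non-homologous end joining rejoins the ends of a DNA double-strand break directly, without copying a template. The Ku70/Ku80 ring slides onto each end and recruits the kinase DNA-PKcs, a nuclease trims ends that cannot be joined as they are, and a ligase complex seals them. Proteins at the chromatin around the break hold back resection, the trimming of a strand that commits the break to repair by homologous recombination. CTX metabolites crosslink DNA, and breaks arise when cells process or replicate past crosslinks.

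The transcripts of the 10 genes moved little and in both directions after 4HC. DCLRE1C and PAXX rose, XRCC6, LIG4 and TP53BP1 fell, and XRCC5, PRKDC, XRCC4, NHEJ1 and RIF1 did not pass the test (edgeR quasi-likelihood test, Benjamini-Hochberg adjusted p under 0.05 over all genes tested). The 2 genes that rose stand beside a background of 19.2% of all tested genes called higher, and the 3 that fell beside 17.1% called lower. In all, 5 of 10 were called against 36.4% of all tested genes. The widest change was a log2 fold change of 0.34, for PAXX. None of the 10 reached a fold change of at least 2 with an unadjusted p under 0.05, the rule for DEGs in the study. With edgeR as used here, 1.15% of all tested genes met that rule. The paper reports many more DEGs under its rule than met it here, and the cause of this difference was not tested. The median log2 fold change was -0.034 over the 10 genes and 0.0047 over all tested genes. In 6 of the 10 genes the normalized read counts of the groups (CPM, counts per 1000000 of the library size as adjusted by TMM normalization) did not overlap, as in 45.3% of all tested genes.

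**Figure D1:**
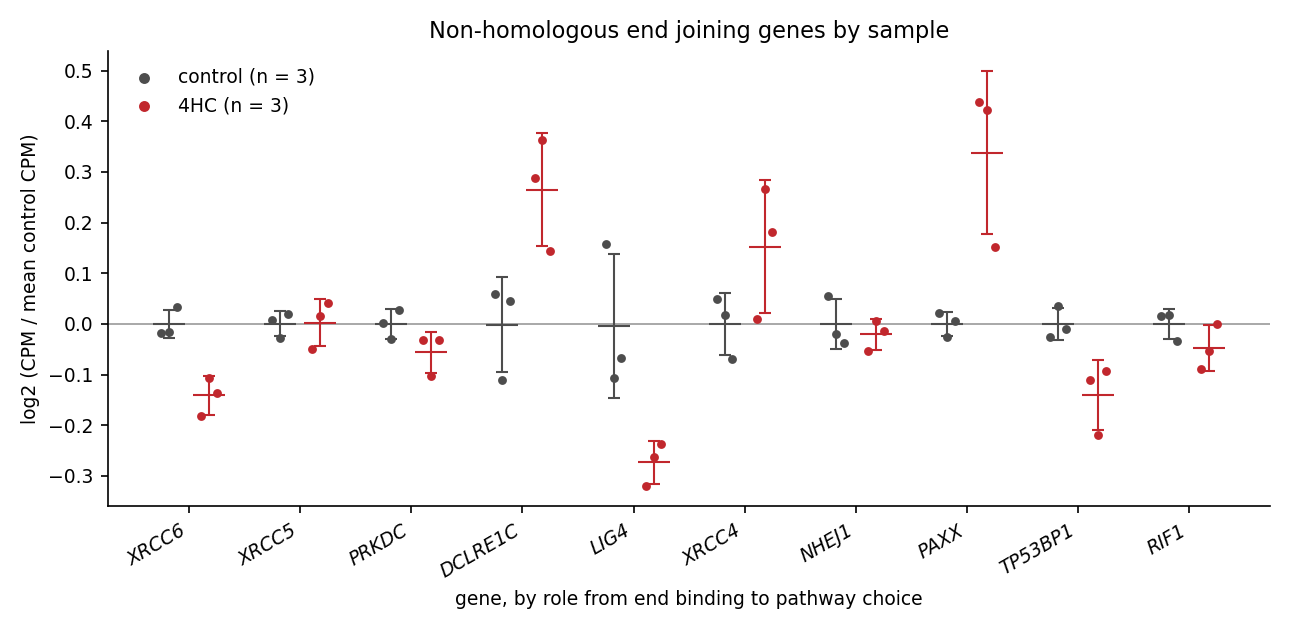
CPM of each gene in each library as the log2 ratio to the control mean of that gene, for 3 control (grey) and 3 4HC (red) libraries, with the mean and SD as bars. The 4HC points lie above all control points for DCLRE1C and PAXX and below them for XRCC6, PRKDC, LIG4 and TP53BP1, and the highest single value is a 4HC library of PAXX.

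In the control cells the levels of the 10 genes, compared in TPM, a measure of transcript abundance scaled for length, spanned a wide range. XRCC6 had the highest mean control TPM, 687 ± 17.7 (SD, n = 3), above 99.0% of the genes in the table. XRCC5 followed at 264 ± 6.35 TPM and PRKDC at 92.3 ± 2.48 TPM. Below these came PAXX at 53.3 ± 1.21, TP53BP1 at 23.7 ± 0.468 and RIF1 at 19.3 ± 0.487 TPM. At the lower end, LIG4 had 13.7 ± 1.46, XRCC4 11.5 ± 0.36, NHEJ1 6.25 ± 0.225 and DCLRE1C 5.14 ± 0.434 TPM. The Ku and DNA-PKcs transcripts stood above those of the ligase and nuclease. Neighbours in this order did not overlap between their 3 control values. In the 4HC cells the order of 2 pairs was exchanged: the mean TPM was 12.4 ± 0.709 for XRCC4 and 11.2 ± 0.258 for LIG4, and 6.7 ± 0.342 for DCLRE1C and 6.13 ± 0.089 for NHEJ1, and the 3 values did not overlap in either pair.

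**Figure D2:**
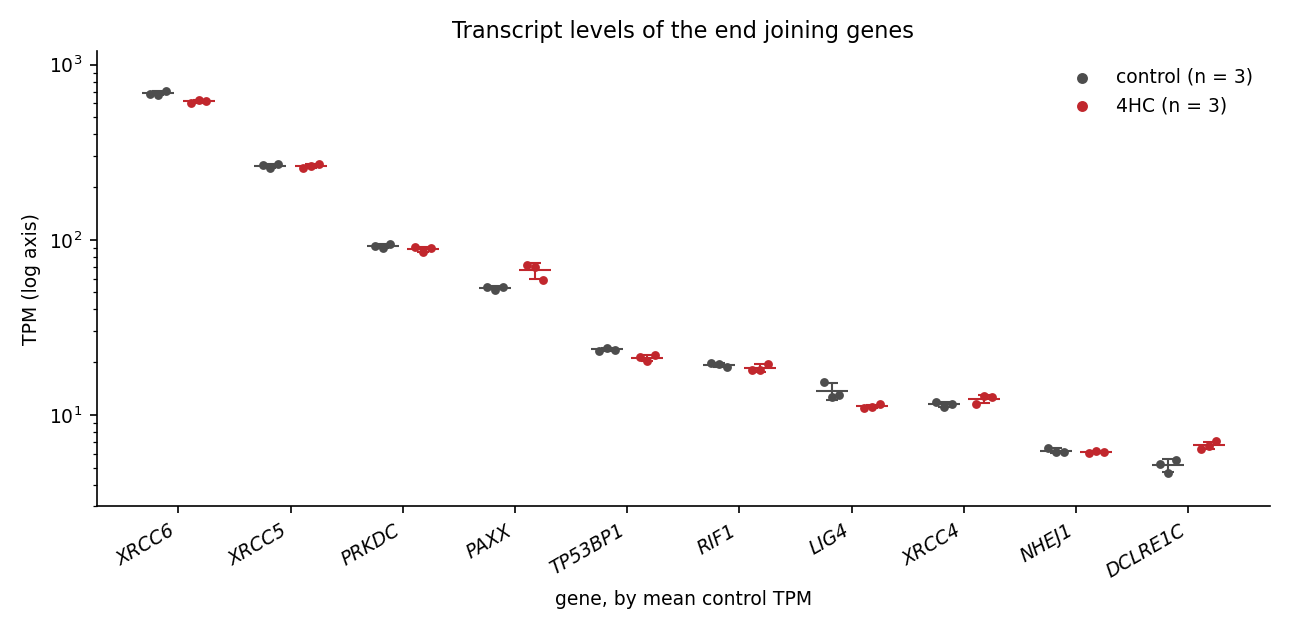
TPM of each gene in each library on a log axis, ordered by the mean of the control libraries, for 3 control (grey) and 3 4HC (red) libraries with the mean and SD. Levels run from 707.63 TPM for XRCC6 in a control library down to 4.68 TPM for DCLRE1C, and the 4HC points of LIG4 and XRCC4 stand in the reverse order of the control points.

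The stretches upstream of the 5 genes that passed the test are shown because they lie upstream of the RefSeq starts of the genes that moved, and because they differ in kind. They are the parts of the 250 bases before each RefSeq start (build GRCh38.p14, read 5' to 3' on the strand of the gene) that hold no exon of GENCODE release 29. Capitals mark a match on either strand to 1 of 4 motifs. These were the box named CCAAT after its letters, the GC box with the letters GGGCGG, the ETS motif with the letters CCGGAAG and the TATA box with the letters TATAAA.
DCLRE1C, chr10:14954433-14954682, minus strand: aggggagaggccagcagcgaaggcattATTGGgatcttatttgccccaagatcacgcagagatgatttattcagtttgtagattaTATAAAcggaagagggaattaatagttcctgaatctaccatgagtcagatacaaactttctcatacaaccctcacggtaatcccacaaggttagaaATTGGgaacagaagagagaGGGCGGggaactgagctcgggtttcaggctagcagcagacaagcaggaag
PAXX, chr9:136992172-136992417, plus strand: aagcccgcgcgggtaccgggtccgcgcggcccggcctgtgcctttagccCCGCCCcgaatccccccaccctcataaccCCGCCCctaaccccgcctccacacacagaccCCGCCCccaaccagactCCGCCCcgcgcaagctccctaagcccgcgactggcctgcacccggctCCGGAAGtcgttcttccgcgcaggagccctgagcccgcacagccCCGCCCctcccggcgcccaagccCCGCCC
TP53BP1, chr15:43510729-43510890, minus strand: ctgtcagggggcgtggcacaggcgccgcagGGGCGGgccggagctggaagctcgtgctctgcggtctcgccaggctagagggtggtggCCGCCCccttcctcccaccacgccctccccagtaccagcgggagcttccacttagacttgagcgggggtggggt
XRCC6, chr22:41621097-41621118, plus strand: cgcatgtgcttacagtcctgac
LIG4, chr13:108218369-108218378, minus strand: agaagccgct

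The stretches of XRCC6 and LIG4 were short because each is the whole gap to a gene on the other strand, DESI1 and ABHD13. GENCODE exons held 228 of the 250 bases for XRCC6 and 240 for LIG4, so neither stretch reaches the RefSeq start. The 2 genes that rose differed most in base composition: over the full 250 bases, GC content was 45.6% for DCLRE1C and 75.6% for PAXX, against a median of 62.4% over 15842 coding gene promoters. The DCLRE1C window held a match to the TATA box, 2 to the CCAAT box and 1 to the GC box, and the PAXX window 6 to the GC box and 1 to the ETS motif. Promoters of 8 of the 10 genes were found in the RefSeq table used here. It lists 5 starts for LIG4, 2 each for DCLRE1C and NHEJ1, and 1 for each of the others. The values describe 1 start per gene, and the background of all coding promoters takes the first start listed for each gene. In the full 250 bases, exon bases included, 7 of these 8 held a GC box, as did 56.0% of all coding promoters. A CCAAT box stood in 4 of the 8 (34.5% of all), an ETS motif in 4 (11.8%) and a TATA box in 1 (9.23%). Some of these matches lay in exon bases left out of the stretches above. They were those of XRCC6 (3 to the GC box and 1 to the CCAAT box) and LIG4 (1 to the ETS motif). The CCAAT box and ETS motif of TP53BP1 also lay there. A match is a description of letters and not of a bound site.

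The Ku heterodimer is the first protein complex on a broken end. XRCC6, which encodes Ku70 (NCBI Gene 2547, chr22:41621285-41664041, GRCh38), was at 796, 797 and 824 CPM in the control libraries and at 710.1, 748 and 733 CPM in the 4HC libraries. Each 4HC library lay below each control library. XRCC6 fell by 0.14 on the log2 scale (SE 0.031, adjusted p = 0.000204, edgeR quasi-likelihood test), from 805 ± 15.9 to 730.5 ± 19.1 CPM (SD, n = 3), the smallest adjusted p of the 10 genes. XRCC5, which encodes Ku80 (NCBI Gene 7520, chr2:216109348-216217135), was at 525, 512 and 529 CPM in control and at 505, 528 and 537 CPM in 4HC. The 2 groups of XRCC5 values overlapped, and its log2 fold change of 0.0028 had a 95% interval from -0.061 to 0.067 (adjusted p = 0.954, edgeR). The subunits are partners in 1 ring, so their counts were also set against each other within each library. The log2 ratio of XRCC6 to XRCC5 counts was 0.599, 0.638 and 0.639 in control and 0.493, 0.503 and 0.449 in 4HC, lower in each 4HC library. On the TPM scale XRCC6 stood at 2.56 to 2.63 times XRCC5 in control and at 2.30 to 2.39 times in 4HC.

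Over the 6 libraries, the genes outside the lists whose log2 CPM followed XRCC6 most closely were UBE2G2 (Pearson's r = 0.997), TMEM33 (r = 0.995) and API5 (r = 0.995). These points share the 2 groups, and 339 genes had r above 0.95, so that the likeness is a description of the step between the groups.

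PRKDC encodes DNA-PKcs, the kinase that Ku recruits and that gates access of the later factors (NCBI Gene 5591, chromosome 8). Its CPM was 778, 761 and 793 in control and 760.0, 723 and 760.0 in 4HC. The lowest control value lay just above the highest 4HC values, so the groups did not overlap, but the log2 fold change of -0.056 did not pass the test (95% interval -0.12 to 0.0058, adjusted p = 0.154, edgeR). An interval of this width leaves a fold between 0.922 and 1.00.

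DCLRE1C encodes Artemis, the nuclease that DNA-PKcs activates to open hairpins and trim overhangs (NCBI Gene 64421, chr10:14897359-14954432). It was at 16.3, 14.5 and 16.2 CPM in control and at 19.1, 20.2 and 17.3 CPM in 4HC, with each 4HC library above each control library. DCLRE1C rose by 0.27 on the log2 scale (SE 0.080, adjusted p = 0.0064, edgeR), a fold of 1.20 with a 95% interval from 1.08 to 1.34. This call was the least firm of the 5, as the adjusted p was 0.0656 with DESeq2, 0.0519 without control replicate 2 and 0.0623 without 4HC replicate 2. In GENCODE release 29 the gene lies on the minus strand and overlaps SUV39H2 on the plus strand, while the deposited table lists it on the plus strand. How the counting treated strand is not given in the sources used here, so reads from the overlap cannot be assigned with certainty. SUV39H2 itself was at 34.0 ± 1.35 CPM in control and 33.6 ± 1.93 CPM in 4HC (log2 fold change -0.018, adjusted p = 0.843, edgeR).

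LIG4 is the DNA ligase that makes the final bond, and XRCC4 is the scaffold that binds and stabilizes it. LIG4 (NCBI Gene 3981, chr13:108207442-108218349) was at 36.7, 30.6 and 31.4 CPM in control and at 26.4, 27.4 and 27.9 CPM in 4HC. All 4HC values were below all control values, and control replicate 1 was the highest library. LIG4 fell by 0.27 on the log2 scale (SE 0.065, adjusted p = 0.000666, edgeR), a fold of 0.828 with a 95% interval from 0.756 to 0.906. Without control replicate 1 or any other single library the log2 fold change stayed between -0.32 and -0.19.

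XRCC4 (NCBI Gene 7518, chr5:83077534-83387063) was at 9.49, 9.29 and 8.75 CPM in control and at 9.23, 11.0 and 10.4 CPM in 4HC. The groups overlapped through 4HC replicate 1, and the log2 fold change of 0.16 did not pass the test (95% interval -0.053 to 0.36, adjusted p = 0.249, edgeR). With counts of 145 to 179 per library it was the gene of the 10 with the fewest reads. Within each library the log2 ratio of LIG4 to XRCC4 counts was 1.95, 1.72 and 1.85 in control and 1.51, 1.31 and 1.42 in 4HC. Each 4HC library was again below each control library, by 0.42 between the means of the log2 ratio.

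NHEJ1 and PAXX are structural relatives of XRCC4 that help hold the ends together for the ligase. NHEJ1, which encodes XLF (NCBI Gene 79840, chr2:219065308-219160815), was at 32.1, 30.5 and 30.1 CPM in control and at 29.8, 31.0 and 30.6 CPM in 4HC. These values overlapped, with a log2 fold change of -0.020 (95% interval -0.14 to 0.10, adjusted p = 0.827, edgeR). As with DCLRE1C, GENCODE places NHEJ1 on the minus strand and the deposited table on the plus strand. NHEJ1 overlaps AC068946.1 on the same strand, which has no entry among the deposited genes. PAXX (NCBI Gene 286257, chr9:136992422-136993987) was at 17.9, 17.4 and 17.7 CPM in control and at 24.0, 23.7 and 19.6 CPM in 4HC. All 4HC libraries lay above the control libraries, and 4HC replicate 3 was the closest to them. PAXX rose by 0.34 on the log2 scale (SE 0.076, adjusted p = 0.000265, edgeR), a fold of 1.27 with a 95% interval from 1.14 to 1.41. The relatives XRCC4, NHEJ1 and PAXX thus had log2 fold changes of 0.16, -0.020 and 0.34, of which that of PAXX passed the test, and the differences between them were not tested.

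TP53BP1 and RIF1 act before the ends are joined, at the chromatin flanking the break, where 53BP1 binds modified histones and recruits RIF1 to restrain resection. TP53BP1 (NCBI Gene 7158, chr15:43403061-43510728) was at 128, 133 and 129 CPM in control and at 120.3, 111 and 122 CPM in 4HC. The groups did not overlap, with 4HC replicate 2 the lowest library. TP53BP1 fell by 0.14 on the log2 scale (SE 0.040, adjusted p = 0.00516, edgeR), a fold of 0.908 with a 95% interval from 0.858 to 0.961. Without 4HC replicate 2 the log2 fold change was -0.10 and no longer passed the test (adjusted p = 0.0815). TUBGCP4, which overlaps TP53BP1 on the other strand, was at 59.6 ± 0.330 CPM in control and 58.7 ± 1.29 CPM in 4HC. RIF1 (NCBI Gene 55183, chr2:151409902-151536191) was at 138, 139 and 134 CPM in control and at 129, 132 and 137 CPM in 4HC. Its groups overlapped, and the log2 fold change of -0.047 had a 95% interval from -0.12 to 0.031 (adjusted p = 0.362, edgeR). NEB, which overlaps RIF1 on the other strand, was at 1.71 ± 0.288 CPM in control and 1.89 ± 0.258 CPM in 4HC.

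In 5 of the 10 genes the start site lies close to that of a gene that runs the other way. GENCODE places the start of XRCC6 23 bases from that of DESI1, PRKDC 2 bases from MCM4, LIG4 11 bases from ABHD13, TP53BP1 230 bases from MAP1A and XRCC4 365 bases from TMEM167A. MCM4, a subunit of the replicative helicase, rose from 217 ± 6.99 to 267 ± 4.43 CPM (log2 fold change 0.30, adjusted p = 5.24e-10, edgeR), while PRKDC had a log2 fold change of -0.056. The log2 ratio of PRKDC to MCM4 counts was 1.87, 1.84 and 1.82 in control and 1.49, 1.46 and 1.51 in 4HC, lower in each 4HC library. LIG4 fell beside an ABHD13 at 37.3 ± 1.06 CPM in control and 37.8 ± 1.33 CPM in 4HC (log2 fold change 0.017, adjusted p = 0.847, edgeR). The log2 ratio of LIG4 to ABHD13 was -0.043, -0.24 and -0.276 in control and -0.462, -0.474 and -0.48 in 4HC.

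At the other 3 pairs, TMEM167A fell by 0.27 on the log2 scale (adjusted p = 1.94e-07, edgeR), from 162 ± 4.69 to 135 ± 7.05 CPM, while XRCC4 had a log2 fold change of 0.16. The annotated bodies of these 2 genes overlap, so the division of reads near their starts is uncertain. DESI1 had a log2 fold change of -0.065 that did not pass the test (adjusted p = 0.256, edgeR). MAP1A, at 2.04 ± 0.331 CPM in control, was close to the limit of detection and had a log2 fold change of -0.22 (adjusted p = 0.477, edgeR). The 7 pairs in which ratios were formed, 5 of neighbours and 2 of binding partners, were picked after the values were known. With 3 libraries against 3 the smallest p of an exact permutation test is 0.1, so the ratios are given as descriptions.

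**Figure D3:**
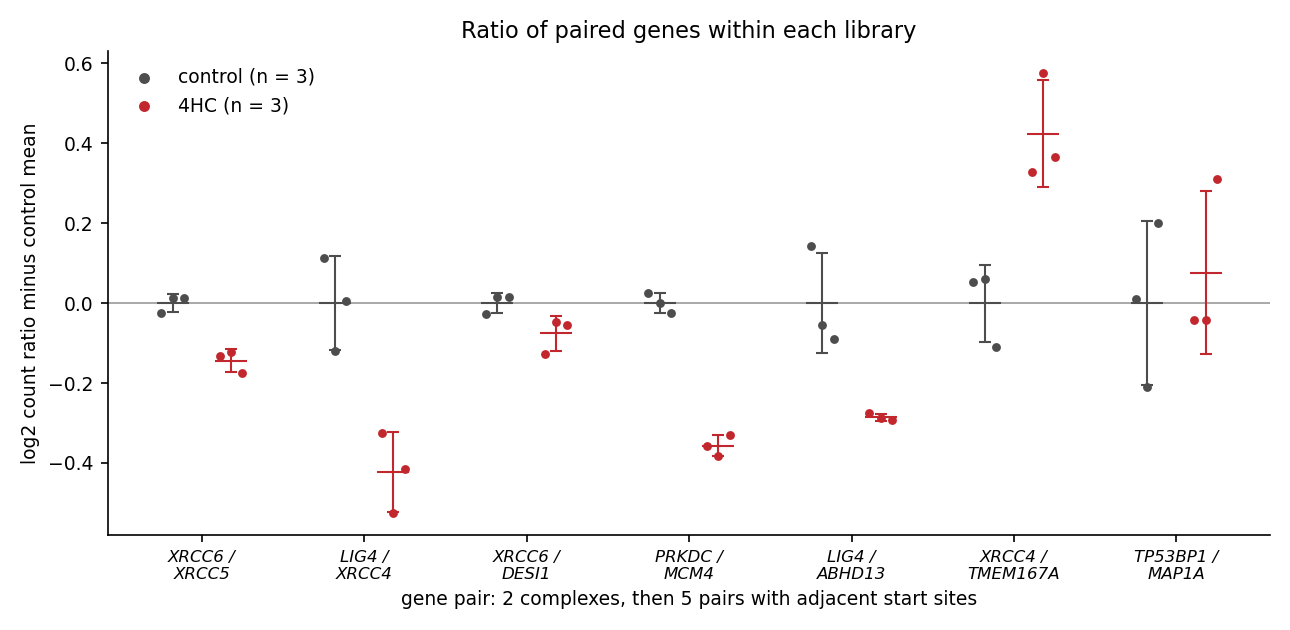
Log2 ratio of the counts of paired genes within each library, minus the mean of the control libraries, for 3 control (grey) and 3 4HC (red) libraries with the mean and SD. The 4HC points lie below the control points for 5 pairs (mean differences from -0.42 for LIG4 to XRCC4 to -0.076 for XRCC6 to DESI1), above them for XRCC4 to TMEM167A (0.42), and overlap them for TP53BP1 to MAP1A.

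The transcripts of the 10 genes gave less certain values than the genes, because reads shared by several transcripts are divided between them by estimate. The deposited table lists 62 transcripts of these genes, of which 43 were tested and 0 passed an adjusted p under 0.05 (edgeR; also 0 with limma), against 1.29% of the 42216 transcripts tested. An unadjusted p under 0.05 was reached by 3, against 11.0% of all tested transcripts. XRCC5 had a single listed transcript, NM_021141. XRCC6 was carried by NM_001469, with 98.9% ± 0.170 of the counts of the gene in control and 98.5% ± 0.431 in 4HC, PRKDC by NM_006904 (97.0% ± 0.614 and 97.3% ± 0.513) and PAXX by NM_183241 (94.3% ± 1.20 and 95.3% ± 1.55). For these, 1 transcript holds nearly all counts of the gene, but the calls did not repeat. The log2 fold change of NM_001469 was -0.15 (adjusted p = 0.0824, edgeR), the lowest adjusted p of the 43. That of NM_183241 was 0.36 (adjusted p = 0.248, edgeR). XRCC6 and PAXX passed the test as genes, and neither transcript did. TP53BP1 was divided between NM_001141980 (70.2% ± 1.98 in control, 68.7% ± 5.09 in 4HC) and XM_011521986 (22.8% ± 0.572 and 21.8% ± 2.85).

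NHEJ1 was carried mainly by NM_024782 (81.5% ± 5.95 in control, 80.1% ± 8.58 in 4HC), with NM_001377498 at 13.1% ± 6.59 and 10.9% ± 4.44. XRCC4 was carried mainly by NM_022406 (75.0% ± 11.5 and 76.8% ± 6.05), with NM_001318012 at 10.3% ± 8.95 and 12.7% ± 2.67. These shares overlapped between the groups for both genes.

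The division varied widely between replicates for LIG4, DCLRE1C and RIF1. The share of LIG4 counts given to NM_206937 was 77.8%, 73.9% and 35.1% in control and 47.7%, 31.4% and 60.5% in 4HC, and that given to NM_001379095 was 16.7% ± 5.59 in control and 19.3% ± 7.40 in 4HC. In DCLRE1C, which has 15 listed transcripts of which 1 had counts in every library, NM_001033855 took 0%, 57.3% and 35.6% of the counts in control and 36.5%, 31.4% and 43.6% in 4HC. NM_001033857 of DCLRE1C took 28.5%, 24.1% and 15.7% in control and 39.1%, 38.9% and 3.65% in 4HC. NM_022487 of DCLRE1C took 26.3%, 7.43% and 25.1% in control and 2.37%, 0% and 0% in 4HC, which did not pass the test (unadjusted p = 0.0473, adjusted p = 0.442, edgeR). Apart from NM_022487, the shares of these LIG4 and DCLRE1C transcripts overlapped between the groups. A share of 0% is an estimate of how the 236 to 327 counts of DCLRE1C in a library were divided, and not a count of reads. For RIF1, with 11 listed transcripts, NM_001177664 took 25.6%, 13.8% and 8.03% of the counts in control and 5.60%, 32.6% and 12.2% in 4HC, which overlapped. The other 2 RIF1 transcripts with at least 10% of its counts were XM_005246665 (23.8% ± 2.90 in control, 24.7% ± 2.15 in 4HC) and NM_018151 (12.3% ± 6.19 and 18.7% ± 2.24), whose groups also overlapped.

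Around the 10 genes, 6 lists of other factors at a double-strand break held 41 genes, of which 39 were tested. Of these, 15 were called higher and 3 lower, and 21 did not pass, where 19.2% of all tested genes were called higher and 17.1% lower. Their median log2 fold change was 0.093, beside the 0.0047 of all tested genes. Of the end processing factors, 4 of 9 tested were called higher. These were APLF, a Ku-binding histone chaperone, which rose by 0.97 from 0.714 ± 0.101 to 1.41 ± 0.235 CPM, POLL, a gap-filling polymerase (log2 fold change 0.21), and APTX, which removes AMP from stalled ligation ends (0.20). CYREN, a Ku-binding regulator of pathway choice, rose by 0.13 on the log2 scale and was named after its values were seen. The calls of APLF, POLL and CYREN were lost with DESeq2, with adjusted p of 0.0889, 0.0643 and 0.052. DNTT, the lymphoid polymerase that adds untemplated bases, was too low to test.

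Break signalling, the step that brings 53BP1 to chromatin, had 2 genes called in each direction of 6. Of all tested genes, 19.2% were called higher and 17.1% lower. H2AX, the histone that is phosphorylated around a break, rose by 0.24 and RNF168, the ubiquitin ligase that writes the mark 53BP1 reads, also by 0.24 on the log2 scale. MDC1, the adaptor on phosphorylated H2AX, fell by 0.25, and NUDT16L1, an inhibitor of 53BP1 (named after its values were seen), fell by 0.24. ATM, the kinase at the head of this branch, had a log2 fold change of 0.076 (adjusted p = 0.139, edgeR). Shieldin and CST are complexes downstream of 53BP1 and RIF1. Their list, which also holds PAXIP1 and DYNLL1, had 1 of 9 called, against 36.4% of all tested genes. MAD2L2 rose by 0.21 on the log2 scale, from 56.7 ± 0.211 to 65.8 ± 0.276 CPM.

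The end resection list, whose products open a break for homologous recombination, had 6 of 8 called higher and 0 called lower (edgeR, with an unadjusted p under 0.05 in the same 6 genes and no other; also 0 called lower with DESeq2), beside 19.2% called higher and 17.1% called lower of all tested genes. DNA2, a resection nuclease and helicase, rose by 0.61, BRCA1 by 0.48 and MRE11, the nuclease that starts resection, by 0.47 on the log2 scale, while RAD50 and NBN, which bind MRE11, had log2 fold changes of -0.024 and 0.012. The median of the list was 0.34. Alternative end joining, which seals ends through short homologies, had 2 of 6 called higher and 1 lower. LIG1 rose by 0.70, from 80.7 ± 4.40 to 132 ± 5.37 CPM, and POLQ, its polymerase, by 0.67, from 45.1 ± 2.86 to 71.6 ± 3.10 CPM. LIG3 fell by 0.26 on the log2 scale. Of the DNA ligases in these lists, LIG1 thus rose and LIG3 and LIG4 fell. RAG1, which cuts the DNA that end joining repairs in lymphocytes, was near 1 CPM and did not pass the test, and RAG2 was too low to test.

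**Figure D4:**
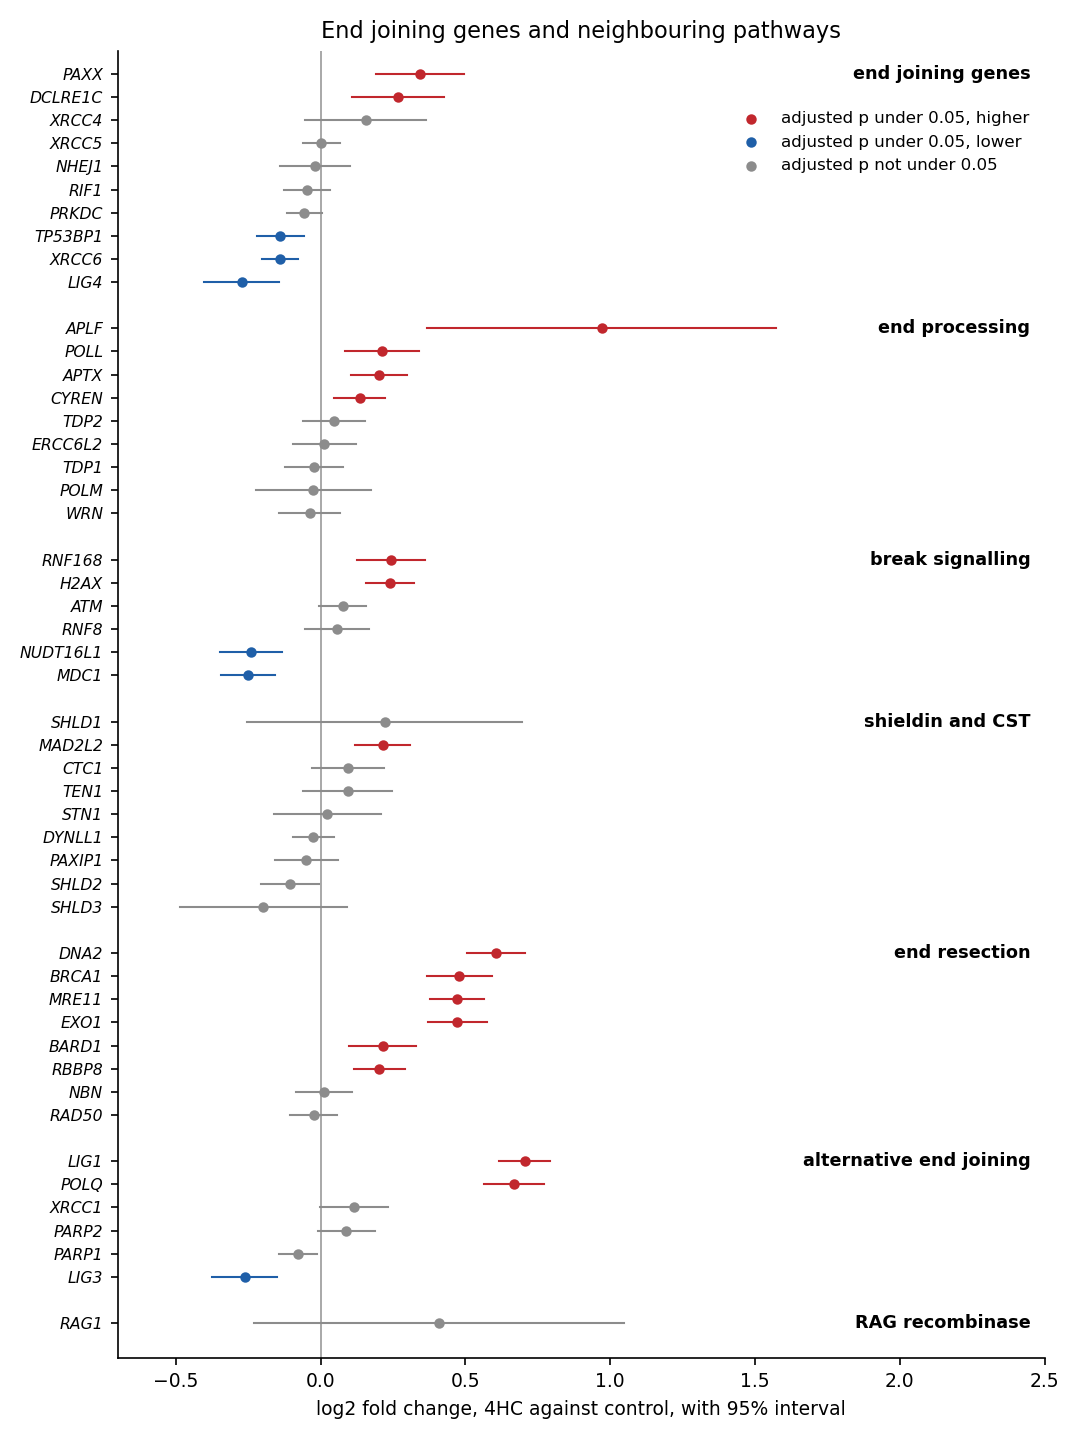
Log2 fold change of 4HC against control with its 95% interval for the 10 end joining genes and the 39 tested genes of 6 related lists (edgeR, 3 against 3), coloured by call. The end joining genes lie between -0.27 and 0.34, while end resection reaches 0.61 with DNA2 and alternative end joining 0.70 with LIG1.

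The deposited annotation has its own category for non-homologous end joining, from KEGG, with 13 genes, 7 of them among the 10. Of its 12 tested genes, 4 were called higher and 2 lower, against 19.2% and 17.1% of all tested genes. Its members outside the 10 were MRE11 and POLL, described above, FEN1, a flap nuclease (named after its values were seen) that rose by 0.46 (adjusted p = 5.93e-14, edgeR), RAD50 and POLM, which did not pass, and DNTT. The 4 called higher were thus DCLRE1C, MRE11, FEN1 and POLL, and the 2 called lower were XRCC6 and LIG4.

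Total expected counts per library were between 16133786 and 16702316. Of 11 GC markers, 3 passed the filter (AMH, HSD17B1 and INHA). INHBA reached at most 0.905 CPM, and AMHR2 and CYP11A1 had no entry. FOXL2, FSHR, CYP19A1, STAR and NR5A1 were at or below 0.185 CPM in every library, so the labelled cell type rests on the label. The summed level of the GC markers was 17.2 to 24.0 CPM in control and 19.8 to 20.9 CPM in 4HC. That of theca and stroma markers was 109 to 118 and 107 to 118 CPM. Most of it was DCN at 42.9 to 50.6 and LUM at 63.2 to 67.7 CPM over all libraries. COL1A1 reached at most 1.48, PDGFRA 0.431 and CYP17A1 0.060 CPM. The sum of oocyte markers was 13.9 to 16.8 and 14.6 to 17.4 CPM, most of it ZP3 at 12.3 to 15.9 CPM. GDF9 reached at most 1.87 and DDX4 0.121 CPM, and BMP15 and FIGLA had no entry. Blood and endothelium markers summed to 3.38 to 3.68 and 3.49 to 5.25 CPM. Markers of the cell cycle and of p53 moved with the treatment, where 19.2% of all tested genes were called higher and 17.1% lower. All 12 of 12 p53 targets were called higher, with a median log2 fold change of 0.90. Their summed level was 1383 to 1404 CPM in control and 3025 to 3065 CPM in 4HC. Of 16 S phase genes, 10 were called higher and 1 lower (2286 to 2336 and 3021 to 3056 CPM). Of 16 G2/M genes, 9 were called lower and 3 higher (2821 to 2943 and 2826 to 2899 CPM). The part of these markers in the values of the end joining genes was not tested. In bulk RNA, fewer cells of a kind and less RNA per cell cannot be told apart.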

How the data were processed

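Total RNA of 6 COV434 samples was sequenced, 3 control and 3 4HC, grouped by their labels. The authors filtered reads with SOAPnuke, and the submitters' processing notes name HISAT2, Bowtie2, RSEM 1.3.1, DESeq2 1.4.5 and GRCh38.p13, with no role given. The authors deposited an expected count per gene and transcript (85.5% of the gene values were whole) and TPM values, which are scaled for length and sum to 1000000 in each library. Their fold change, p-value and q-value columns were not used, nor was a second gene table identical to the first.

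Expected counts were rounded and tested with edgeR 4.0.16 (R 4.3.3): TMM, filterByExpr, a quasi-likelihood test of condition, and Benjamini-Hochberg adjustment over all 12368 genes or 42216 transcripts. The study compared groups with DESeq2, which is an alternative here. CPM values use TMM library sizes. The test was first tried on simulated data. Replicates differed by more than sampling noise (chi-square per gene 1.7 to 2.47). Total counts of 16133786 to 16702316 per library limit genes near 1 CPM, and intervals cover the spread between these libraries only. Starts and overlaps came from GENCODE release 29, upstream sequences from RefSeq. Exact permutation used scipy 1.17.1, tables pandas 2.3.3 and Python 3.11.15, and figures matplotlib 3.10.9.

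The 10 genes and all lists were chosen with earlier results of these data known, and 1 gene of the end processing list is not reported here. From each other list the text names up to 3 called genes with the largest change, from neighbours the nearest gene, for the gene with the smallest adjusted p the 3 most similar genes, and transcripts with at least 10% of the counts of their gene. Alternatives were DESeq2 1.42.0, edgeR with the size factors of DESeq2 or scaled by library size alone, edgeR unfiltered or with at least 10 counts per gene in each library, a block on replicate number, limma 3.58.1 on log2(TPM + 1) or log2(TPM + 0.1), and fits that left out 1 library. Ratios within libraries were also computed from TPM, which was chosen after seeing the data.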

Additional observations from a re-analysis of the deposited data

How the results depend on the processing

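The direction and call of XRCC6, LIG4 and PAXX were the same under every alternative tried, and PRKDC, XRCC4 and RIF1 passed the test in none, with their direction unchanged. The number of end joining genes called higher was 1 with DESeq2 in place of 2, and 1 to 2 when a single library was left out, and the number called lower was 2 to 3 then. DCLRE1C lost its call with DESeq2 (log2 fold change 0.26, adjusted p = 0.0656) and had values of 0.21 to 0.33 when each library was left out, with adjusted p up to 0.0623. For TP53BP1 these values ran from -0.16 to -0.10, with adjusted p up to 0.0815. XRCC5 was so close to 0 that its sign turned: -0.0023 with DESeq2 size factors within edgeR, -0.00031 without a filter, -0.0031 with DESeq2, -0.0054 with limma on TPM at either pseudocount, and -0.016 to 0.023 with a library left out. NHEJ1 turned to 0.00034 with library size as the only scaling and ran from -0.040 to 0.0058 with a library left out. The log2 ratio of TP53BP1 to MAP1A ran from -0.042 to 0.18 then, and the other 6 ratios kept their sign. The cause of these changes was not tested.

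Of the other lists, end processing had 1 gene called higher with DESeq2 and 2 without 4HC replicate 2, in place of 4, and alternative end joining had 2 genes called lower in place of 1 with DESeq2, DESeq2 size factors, the minimum of 10 counts, and without control replicate 2 or 4HC replicate 1. Shieldin and CST had 1 called lower without 4HC replicate 2. The 18 called genes of these lists kept their call in 243 of 252 values, and 3 of them lost it in at least 1. Transcripts with an unadjusted p under 0.05 numbered 5 with limma in place of 3, and 0 passed the adjusted threshold under any setting. Library size as the only scaling moved the median of all genes by 0.021 (log2).

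With the replicate number as a block, 2 end joining genes were called higher and 3 lower, as without it, and 2259 and 1954 of all genes against 2379 and 2118. Deviations of same-numbered libraries correlated at 0.009, 0.069 and 0.03. Control replicates 2 and 3 correlated best with the 4HC library of the same number, and control replicate 1 with 4HC replicate 3 (0.045). Values this small, from 3 libraries per group, cannot decide whether same-numbered libraries share a culture or batch.

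Depth limits XRCC4, at 145 to 179 counts per library, and genes near 1 CPM such as APLF. Outlying libraries were not tested for with 3 per group, and overlapping genes were not separated by strand.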
